A study of Homo sapiens with 28 samples.

Results

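RNA of human non-small cell lung cancer cells treated with compound C was compared with RNA of untreated cells, over 2 cell lines pooled. The comparison holds 8 of the 28 libraries of the study: 2 replicates of compound C in H2009 cells and 2 in H596 cells, set against 2 untreated replicates of each line. Both lines are labelled wild type and both carry the histology label adenocarcinoma. The treated cells received 100 nM of compound C for 24 h before lysis on the dish. The other cells were left untreated and the labels name no vehicle control, so anything that came with the compound's solvent cannot be told apart from the compound. Compound B was given at the same dose and time to both lines, in 4 further libraries of the same table. The labels call compound B an inhibitor of RUVBL1 and RUVBL2 and do not say what compound C is, and neither structure is given. The rest of the study measured siRNA against RUVBL1, set against libraries labelled siNT, and sequenced RUVBL1 and RUVBL2 cDNA. Of the 13481 genes in the table, 10645 had a mean of at least 1 FPKM (fragments mapped per length of transcript and per sequenced fragment) in both lines, and these were tested.

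RUVBL1 and RUVBL2 are related AAA+ ATPases that form rings together. They bind RPAP3 and PIH1D1 in the R2TP complex, the core of the larger PAQosome, which works with HSP90 to assemble other machines: kinases of the PIKK family such as mTOR and DNA-PK, the box C/D small nucleolar ribonucleoproteins (snoRNPs) that modify ribosomal RNA, the U5 particle of the spliceosome and RNA polymerases. They are also built into the chromatin complexes INO80, SRCAP and TIP60.

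The values are FPKM without read counts, so the depth behind a value is unknown. The sums of FPKM over the table were 573726 and 749060 in H2009 and 569926 and 571156 in H596 with compound C, against 632540 and 629210 in H2009 and 579125 and 618824 in H596 without treatment. Compound C replicate 2 of H2009 therefore had the highest sum of these 8 libraries, and its part in the results was not tested beyond leaving it out. The epithelial genes KRT8, KRT18, KRT19, EPCAM and CDH1 summed to between 2801 and 3594 FPKM with compound C, against between 2599 and 3757 FPKM without. The lung lineage genes NKX2-1 and SFTA3 summed to between 139.8 and 179.5 FPKM in H2009 with compound C, against between 126 and 163 FPKM without, but to at most 0.968 FPKM in H596 with compound C and at most 1.22 FPKM without. H596 instead had the squamous keratin gene KRT5 at 1189.5 and 1013 FPKM with compound C, against 1452 and 1212 FPKM without. Fibroblast markers summed to at most 2.18 FPKM in the 8 libraries, with 2 of 6 genes in the table. The blood marker CD68 was between 5.92 and 18.7 FPKM with compound C, against between 5.49 and 18.5 FPKM without, and was the 1 of 6 blood genes in the table; none of the 3 endothelial genes was there.

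At this dose and time no gene passed the test with compound C in the fit of its 8 libraries. Of 10645 genes, 0 reached an adjusted p under 0.05 in limma, a background of 0% called, and the smallest adjusted p was 0.999998. With all 12 libraries of the table in 1 fit, which also let effects differ between the lines, EEF1A1 and FAM72D passed (2 genes). Both are described further on. An unadjusted p under 0.05 was reached by 63 genes, 0.592% of those tested. A test at this threshold gives a share near 0.05 when no gene changes, and why the share was lower was not tested. The absence of calls therefore does not show that compound C had no effect. The median log2 change over all genes was -0.0002, with 5315 of 10645 above 0. All changes here are on the log2(FPKM + 1) scale, which understates changes of genes with low FPKM. The intervals were narrow. The 95% interval reached 0.224 on either side of the estimate for the median gene and 0.305 at the 90th percentile. For 10631 genes (99.9%) the whole interval lay between -1 and 1, and for 10355 (97.3%) between -0.5 and 0.5. A change of 0.5 or more in size was estimated for 13 genes, 0.122% of those tested. Whether replicates came from separate cultures is not stated, so the intervals and p-values cover just the spread among these 8 libraries, which may be technical.

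Within single pairs of libraries the changes were wider in H2009 than in H596. The middle 50% of genes spanned 0.251 and 0.347 on the log2 scale in H2009 replicates 1 and 2, and 0.137 and 0.205 in H596 replicates 1 and 2. In both lines at once, all compound C libraries lay above all untreated libraries for 25 genes (0.235%) and below them for 17 genes (0.16%). In a fit with an interaction, 1 gene (0.00939%) was called between the lines, the elongation factor gene EEF1A1, whose call rests on listed zeros and is described with the translation genes. The same fit gave 2 calls in H2009, EEF1A1 and FAM72D, and 0 in H596, where 37 genes had an unadjusted p under 0.05, against 65 in H2009; its median interval reached 0.350 on either side. The plot of all changes shows the narrow band of compound C beside the wide clouds of both comparisons with compound B.

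**Figure D1:**
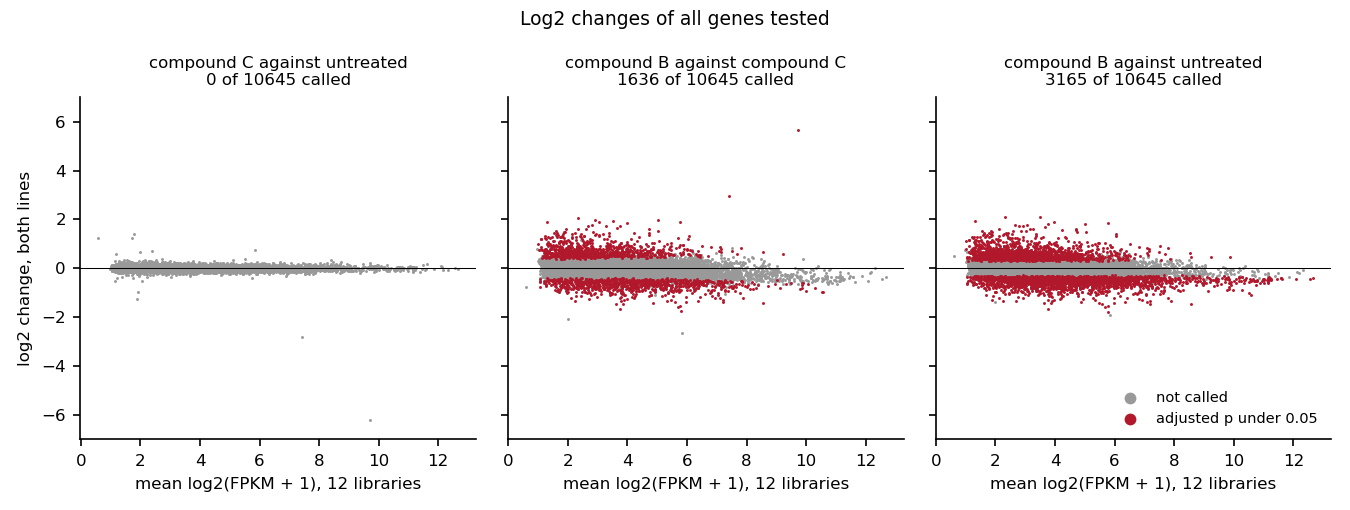
Log2 change (vertical) against mean log2(FPKM + 1) over 12 libraries (horizontal) for 10645 genes, 1 point per gene, with genes under an adjusted p of 0.05 in red. Compound C against untreated has 0 red points and lies in a narrow band around 0 apart from a few genes, while compound B against compound C has 1636 and compound B against untreated has 3165.

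RUVBL1 and RUVBL2 themselves were at high levels in every library. RUVBL1 was at 78.9 and 117 FPKM in H2009 and 111 and 153 FPKM in H596 with compound C, against 92.4 and 110.0 FPKM in H2009 and 119 and 176 FPKM in H596 without treatment, a log2 change of -0.11 (95% interval -0.33 to 0.11). RUVBL2 was at 188 and 242 FPKM in H2009 and 112 and 176 FPKM in H596 with compound C, against 231 and 225 FPKM in H2009 and 117 and 181 FPKM in H596 without treatment, a log2 change of -0.07 (95% interval -0.36 to 0.21). The treated and untreated libraries overlapped within each line for both genes, and neither passed. With compound B, RUVBL1 was at 70.3 and 84.0 FPKM in H2009 and 93.0 and 117 FPKM in H596, and its log2 difference from compound C was -0.32 (95% interval -0.61 to -0.03, limma adjusted p = 0.117).

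The genes of the R2TP complex and the PAQosome had estimates slightly below 0, and none passed. Of 14 tested members 0 passed with compound C, and their median log2 change was -0.09, beside -0.0002 over all genes. Above 0 were 0 of 14, where 5315 of all 10645 genes were. Their pair medians were -0.18 and -0.05 in H2009 replicates 1 and 2 and -0.05 and -0.20 in H596 replicates 1 and 2. This tendency was not tested. PFDN6, a prefoldin subunit, was at 179 and 257 FPKM in H2009 and 234 and 331 FPKM in H596 with compound C, against 222 and 271 FPKM in H2009 and 241 and 402 FPKM in H596 without treatment, a log2 change of -0.18 (95% interval -0.42 to 0.07). PIH1D1, the R2TP adaptor that binds client proteins, had a log2 change of -0.14 (95% interval -0.35 to 0.07), and RPAP3, which holds the complex together and binds HSP90, had -0.03 (95% interval -0.26 to 0.21). All 14 intervals lay between -0.5 and 0.5, as did 97.3% over all genes. Of the 9 PIKK kinases and their TTT chaperone genes 0 passed, at a median of -0.04 and with 0 of 9 above 0. By pair their median was 0.19 and -0.41 in H2009 replicates 1 and 2 and 0.03 and 0.02 in H596 replicates 1 and 2, so it was below 0 in just 1 pair, that of the library with the highest sum of FPKM, whose part was not tested. PRKDC, which encodes the catalytic subunit of DNA-PK, was at 38.1 and 17.3 FPKM in H2009 and 44.7 and 52.8 FPKM in H596 with compound C, against 31.8 and 27.6 FPKM in H2009 and 47.5 and 53.9 FPKM in H596 without treatment. Its change was 0.25 in H2009 replicate 1 and -0.65 in H2009 replicate 2, so the 2 pairs of that line disagreed in sign. MTOR had -0.02 (95% interval -0.29 to 0.25), ATM, the kinase of the DNA break response, had -0.04 (95% interval -0.28 to 0.20), and TELO2, the TTT subunit that binds the kinases, had -0.08 (95% interval -0.41 to 0.25). The 28 subunits of TIP60, INO80 and SRCAP had a median of -0.03 and 0 calls, with the acetyltransferase KAT5 at -0.05 (95% interval -0.23 to 0.13) and its partner ING3 at 0.01 (95% interval -0.23 to 0.26).

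Among the client pathways, snoRNP proteins and ribosomal RNA processing factors had the lowest median of any list with at least 5 tested genes. It was -0.13, with 5 of 45 above 0, and 0 of 45 passed. By pair the median was -0.06 and -0.12 in H2009 and -0.08 and -0.29 in H596. The methyltransferase gene NOP2, needed for maturation of the large ribosomal subunit, was at 35.6 and 31.3 FPKM in H2009 and 17.7 and 24.4 FPKM in H596 with compound C, against 37.2 and 42.2 FPKM in H2009 and 19.2 and 31.7 FPKM in H596 without treatment, a log2 change of -0.24 (95% interval -0.52 to 0.04). RRP9, a protein of the U3 snoRNP, was at 40.1 and 39.3 FPKM in H2009 and 12.98 and 15.1 FPKM in H596 with compound C, against 44.7 and 40.6 FPKM in H2009 and 15.1 and 20.9 FPKM in H596 without treatment, a log2 change of -0.21 (95% interval -0.46 to 0.03). For RRP9 all 4 within-replicate differences were below 0, at -0.15, -0.05, -0.20 and -0.44, but the interval spanned 0. FBL, the snoRNP methyltransferase fibrillarin, had -0.08 (95% interval -0.35 to 0.19). With compound B the same 45 genes had a median of -0.52 against untreated cells, with 2 higher and 33 lower, where 12% of all genes were called higher and 17.7% lower; the comparison shares its untreated libraries with that of compound C. Set directly against each other, compound B was higher than compound C for 1 of these genes and lower for 14, where 7.05% of all genes were called higher and 8.32% lower. The 12 U5 snRNP genes and cofactors had a median of -0.05 with compound C and 0 calls, and ECD, which links the PAQosome to U5 assembly, had -0.11 (95% interval -0.31 to 0.09). The 22 cytosolic heat shock genes had a median of -0.09 and 0 calls. FKBP4, a co-chaperone of HSP90, was one of the 17 genes with all compound C libraries below the untreated ones in both lines, at 53.2 and 51.4 FPKM in H2009 and 29.3 and 30.4 FPKM in H596 with compound C, against 60.5 and 54.0 FPKM in H2009 and 33.3 and 36.7 FPKM in H596 without treatment; its log2 change was -0.17 (95% interval -0.38 to 0.03).

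The genes that responded most to compound B were also read with compound C, since both compounds were measured at 100 nM and 24 h in the same table. The panel holds the 8 highest and 8 lowest log2 changes among genes that passed with compound B against untreated cells and kept 1 sign in all 4 replicate pairs, so their compound B changes are a description. The untreated libraries used in that choice also enter the compound C changes of the panel. ATF3, a stress-induced transcription factor, was at 33.2 and 26.1 FPKM in H2009 and 26.2 and 27.0 FPKM in H596 with compound B, 3.63 and 3.85 FPKM in H2009 and 12.7 and 9.22 FPKM in H596 with compound C, and 3.82 and 2.86 FPKM in H2009 and 10.6 and 8.85 FPKM in H596 without treatment. CDKN1A, the cell cycle inhibitor p21, was at 41.3 and 25.5 FPKM in H2009 and 46.3 and 36.2 FPKM in H596 with compound B, 4.69 and 3.17 FPKM in H2009 and 26.4 and 17.0 FPKM in H596 with compound C, and 5.54 and 2.37 FPKM in H2009 and 24.9 and 17.2 FPKM in H596 without treatment. In both lines the compound B libraries of both genes lay above all others, and the compound C and untreated libraries overlapped. Compound C minus untreated was 0.14 (95% interval -0.07 to 0.36) on the log2 scale for ATF3 and 0.04 (95% interval -0.17 to 0.26) for CDKN1A. Compound B minus compound C was 1.95 for ATF3 and 1.85 for CDKN1A, given without a test because the same compound B libraries chose the panel. ID2, an inhibitor of helix-loop-helix transcription factors, was at 34.7 and 31.9 FPKM in H2009 with compound B, 4.24 and 5.83 FPKM with compound C and 4.56 and 4.70 FPKM without treatment. For ID2, compound C minus untreated was 0.07 (95% interval -0.14 to 0.28). MARCKSL1, an actin-regulating membrane protein, had the largest negative change of the panel with compound C, -0.13 (95% interval -0.35 to 0.08). In H2009 it was at 334 and 263 FPKM with compound B, 53.7 and 48.0 FPKM with compound C and 60.7 and 48.7 FPKM without.

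For the 8 genes lowest with compound B, of which HNRNPA1P10 is a copy of HNRNPA1, the levels with compound C were close to untreated levels. DDX39A, an RNA helicase of messenger RNA export, was at 16.6 and 18.4 FPKM in H2009 and 26.1 and 36.1 FPKM in H596 with compound B, 60.8 and 123 FPKM in H2009 and 52.8 and 111 FPKM in H596 with compound C, and 73.7 and 95.3 FPKM in H2009 and 57.3 and 119.6 FPKM in H596 without treatment. Its compound C and untreated libraries were interleaved in both lines, and the log2 change was -0.03 (95% interval -0.31 to 0.25). SNRPA, the A protein of the U1 spliceosome particle, was at 24.0 and 17.5 FPKM in H2009 and 36.5 and 20.5 FPKM in H596 with compound B, 93.3 and 70.6 FPKM in H2009 and 78.8 and 56.7 FPKM in H596 with compound C, and 104 and 68.5 FPKM in H2009 and 75.3 and 56.2 FPKM in H596 without treatment. Its change with compound C was -0.01 (95% interval -0.21 to 0.19), and compound B minus compound C was -1.60. HNRNPA1, a regulator of splicing, was at 159 and 187 FPKM in H2009 and 198 and 226 FPKM in H596 with compound B, 642 and 803 FPKM in H2009 and 351 and 377 FPKM in H596 with compound C, and 657 and 834 FPKM in H2009 and 345 and 427 FPKM in H596 without treatment. Its change with compound C was -0.06 (95% interval -0.31 to 0.19); reads of this gene can be split with its copy HNRNPA1P10, whose change was -0.10 (95% interval -0.38 to 0.18). SARS2, the mitochondrial seryl-tRNA synthetase, had -0.03 (95% interval -0.28 to 0.22) with compound C, RPP40, a subunit of ribonuclease P, had -0.07 (95% interval -0.36 to 0.22), and FUBP1, a single-strand DNA-binding regulator, had -0.07 (95% interval -0.30 to 0.16). Over all 16 genes of the panel the change with compound C ran from -0.13 to 0.14. All 16 intervals lay between -0.5 and 0.5, as did 97.3% over all genes. The plot of the panel by library shows compound C beside untreated cells in every gene.

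**Figure D2:**
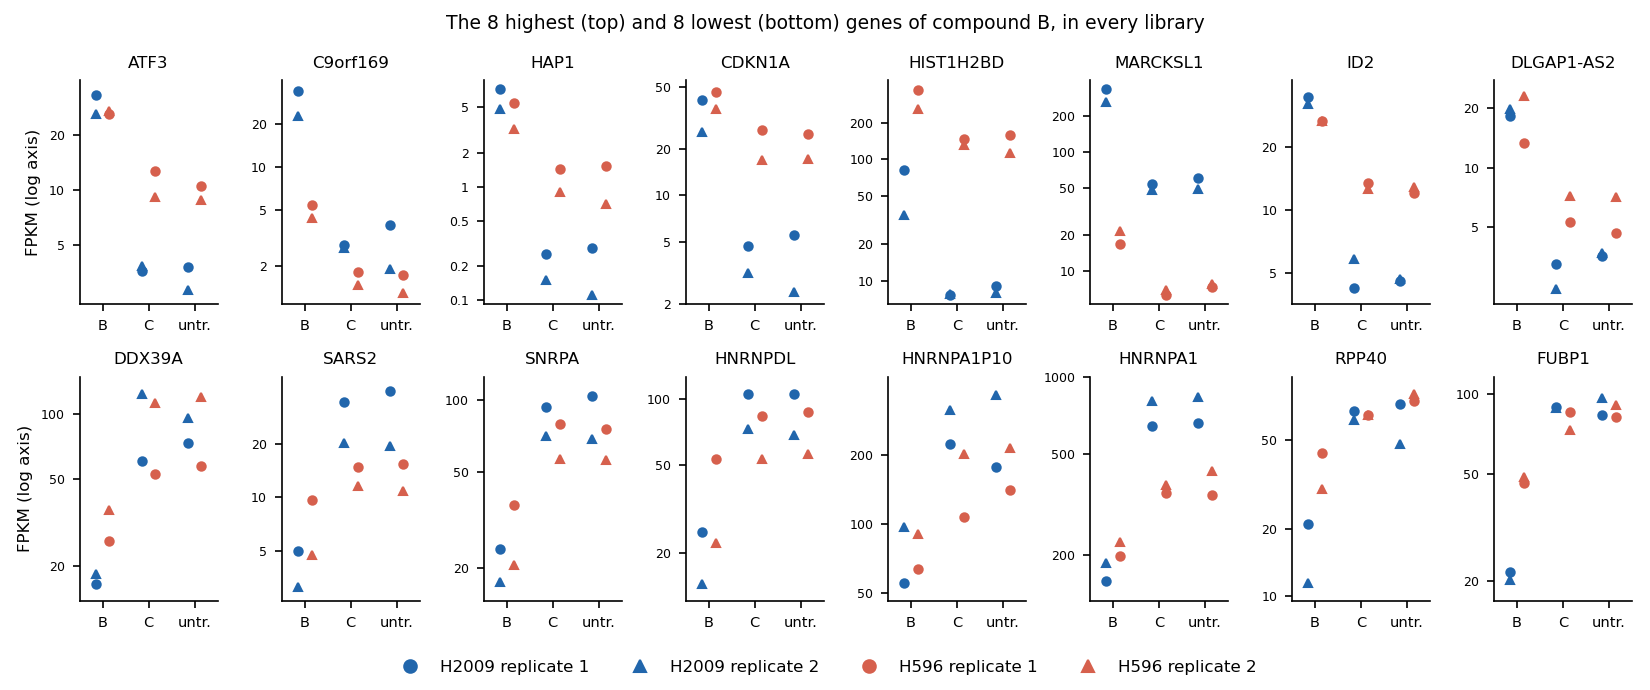
FPKM on log axes of the 16 panel genes in the 12 libraries, with compound B, compound C and untreated cells from left to right; colours mark the cell line and symbols the replicate. In ATF3, for example, H2009 stands at 33.2 and 26.1 FPKM with compound B, 3.63 and 3.85 FPKM with compound C and 3.82 and 2.86 FPKM without treatment.

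The 2 compounds, 1 pair compared at matched dose and time, differed at 1636 of 10645 genes (15.4%): 750 (7.05%) were higher and 886 (8.32%) lower with compound B than with compound C. Against untreated cells, compound B had 3165 calls (29.7%), 1277 (12%) higher and 1888 (17.7%) lower; without the replicate block the count was 204, and leaving out single libraries gave 1056 to 3591, with 1056 when untreated replicate 1 of H2009 was absent. Of the 128 genes called higher with compound B by 1 or more, the median change was 1.23 with compound B and 0.03 with compound C, and 0 passed with compound C. Of the 82 called lower by 1 or more, the medians were -1.12 with compound B and -0.06 with compound C, again with 0 passing. The interval for compound C lay between -0.5 and 0.5 for 116 of the 128 and for 76 of the 82, both lower shares than the 97.3% over all genes tested. The direct comparison reuses the compound B libraries that chose these genes, so no count of them is given for it. Both sets were chosen on the untreated libraries that also enter the compound C values, so the small shift of the medians towards compound B was not tested. The size of the direct count depends on the libraries: it was 91 without the replicate block and ran from 160 to 2645 when single libraries were left out, with 160 when compound C replicate 1 of H2009 was absent. Only 1 dose and 1 time were measured, so nothing is known here of compound C at others.

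Genes of the replication cycle did not pass either. Of 14 genes of the replication-dependent histone list, 0 passed with compound C, at a median of 0.03. With compound B the median was 1.06, with 11 higher and 1 lower, where 12% of all genes were called higher and 17.7% lower. The libraries came from an mRNA kit, and whether these values follow S phase was not tested. HIST1H2BD was at 82.2 and 34.7 FPKM in H2009 and 372 and 258 FPKM in H596 with compound B, 7.73 and 7.88 FPKM in H2009 and 146 and 131 FPKM in H596 with compound C, and 9.07 and 8.03 FPKM in H2009 and 159.5 and 113 FPKM in H596 without treatment. HIST2H2BE was at 1.96 and 1.35 FPKM in H2009 and 18.5 and 14.9 FPKM in H596 with compound C, against 1.499 and 1.27 FPKM in H2009 and 15.5 and 12.2 FPKM in H596 without treatment, a log2 change of 0.20 (95% interval 0.02 to 0.38) at an unadjusted p of 0.0343 that did not pass adjustment. Histone genes have near-identical copies, so their single values are uncertain. The 48 DNA replication genes had a median of -0.02 and 0 calls, with the replicative helicase factor GINS1 at 0.16 (95% interval -0.10 to 0.41). The 24 genes of nucleotide synthesis had a median of -0.04 with compound C and 0 calls, beside -0.49 with compound B, with 1 higher and 14 lower (12% and 17.7% over all genes). PFAS, an enzyme of purine synthesis, was at 1.13 and 1.25 FPKM in H2009 and 5.43 and 4.02 FPKM in H596 with compound B, 8.64 and 5.44 FPKM in H2009 and 8.07 and 8.41 FPKM in H596 with compound C, and 8.29 and 6.44 FPKM in H2009 and 8.97 and 8.55 FPKM in H596 without treatment. IMPDH2, the rate-limiting enzyme of guanine nucleotide synthesis, had -0.16 (95% interval -0.39 to 0.07) with compound C. The 40 mitosis genes had a median of 0.01 and 0 calls with compound C, beside -0.40 with compound B, with 1 higher and 22 lower (12% and 17.7% over all genes). The mitotic kinase PLK1 was at 64.5 and 43.3 FPKM in H2009 and 91.3 and 74.6 FPKM in H596 with compound B, 149.7 and 105 FPKM in H2009 and 145 and 140.5 FPKM in H596 with compound C, and 159 and 107 FPKM in H2009 and 154 and 146 FPKM in H596 without treatment. CDC20, an activator of the anaphase-promoting complex, had -0.05 (95% interval -0.32 to 0.22) with compound C. In PLK1 and CDC20 all compound B libraries lay below all others of their line.

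Stress and signalling lists showed the same absence of calls. The 25 p53 targets had a median of -0.01 and 0 calls, with GADD45A, a growth arrest gene, at 78.4 and 45.5 FPKM in H2009 and 76.6 and 64.3 FPKM in H596 with compound B, 11.7 and 8.20 FPKM in H2009 and 46.7 and 49.2 FPKM in H596 with compound C, and 9.47 and 6.73 FPKM in H2009 and 53.5 and 67.5 FPKM in H596 without treatment. The 20 genes of the ATF4 response had a median of 0.02, and the 18 of the unfolded protein response a median of -0.02, with 0 calls in both. DDIT3, which encodes the stress factor CHOP, was at 12.8 and 23.4 FPKM in H2009 and 18.7 and 15.3 FPKM in H596 with compound C, against 18.2 and 15.7 FPKM in H2009 and 18.9 and 19.4 FPKM in H596 without treatment, a log2 change of -0.07 (95% interval -0.41 to 0.28). In H2009 DDIT3 was below the untreated level in replicate 1 and above it in replicate 2. FOSL1, a subunit of AP-1, was at 111 and 54.6 FPKM in H2009 and 18.4 and 20.04 FPKM in H596 with compound C, against 122 and 63.2 FPKM in H2009 and 24.5 and 35.7 FPKM in H596 without treatment. All 4 of its pairs were below 0, at -0.13, -0.21, -0.40 and -0.80, but the log2 change of -0.38 (95% interval -0.89 to 0.12) did not pass (unadjusted p = 0.123). F3, the coagulation starter tissue factor and a YAP target, was at 91.4 and 87.0 FPKM in H2009 and 126 and 194 FPKM in H596 with compound C, against 89.7 and 101 FPKM in H2009 and 159 and 338 FPKM in H596 without treatment, a log2 change of -0.33 (95% interval -0.72 to 0.07). Its pairs were 0.03 and -0.21 in H2009 and -0.33 and -0.79 in H596, so 3 of 4 lay below 0, and the change did not pass. The 22 immediate early genes had a median of -0.03, the 16 YAP and TEAD targets -0.05 and the 10 NF-kappa B targets -0.07, all with 0 calls. Of 26 interferon response genes 0 passed, at a median of -0.01. An unadjusted p under 0.05 was reached by 2 of the 26, where 0.592% of all genes reached it. IFI6, an interferon-induced mitochondrial protein, had a log2 change of 0.34 (95% interval 0.00 to 0.67). USP18, which removes ISG15 from proteins, had 0.21 (95% interval 0.01 to 0.40). With compound B these were 0.34 for IFI6 and -0.36 for USP18. In the 23 cholesterol synthesis genes the median was 0.04, and TM7SF2, a sterol reductase, had 0.27 (95% interval 0.05 to 0.50) with all 4 pairs above 0 and no call. The 16 genes of the NRF2 response had a median of 0.01 and the 17 hypoxia genes -0.03, with 0 calls in each; only 2 of the 12 xenobiotic response genes were high enough to be tested, and 0 of them passed. Over all lists 586 genes were tested and 0 passed with compound C.

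**Figure D3:**
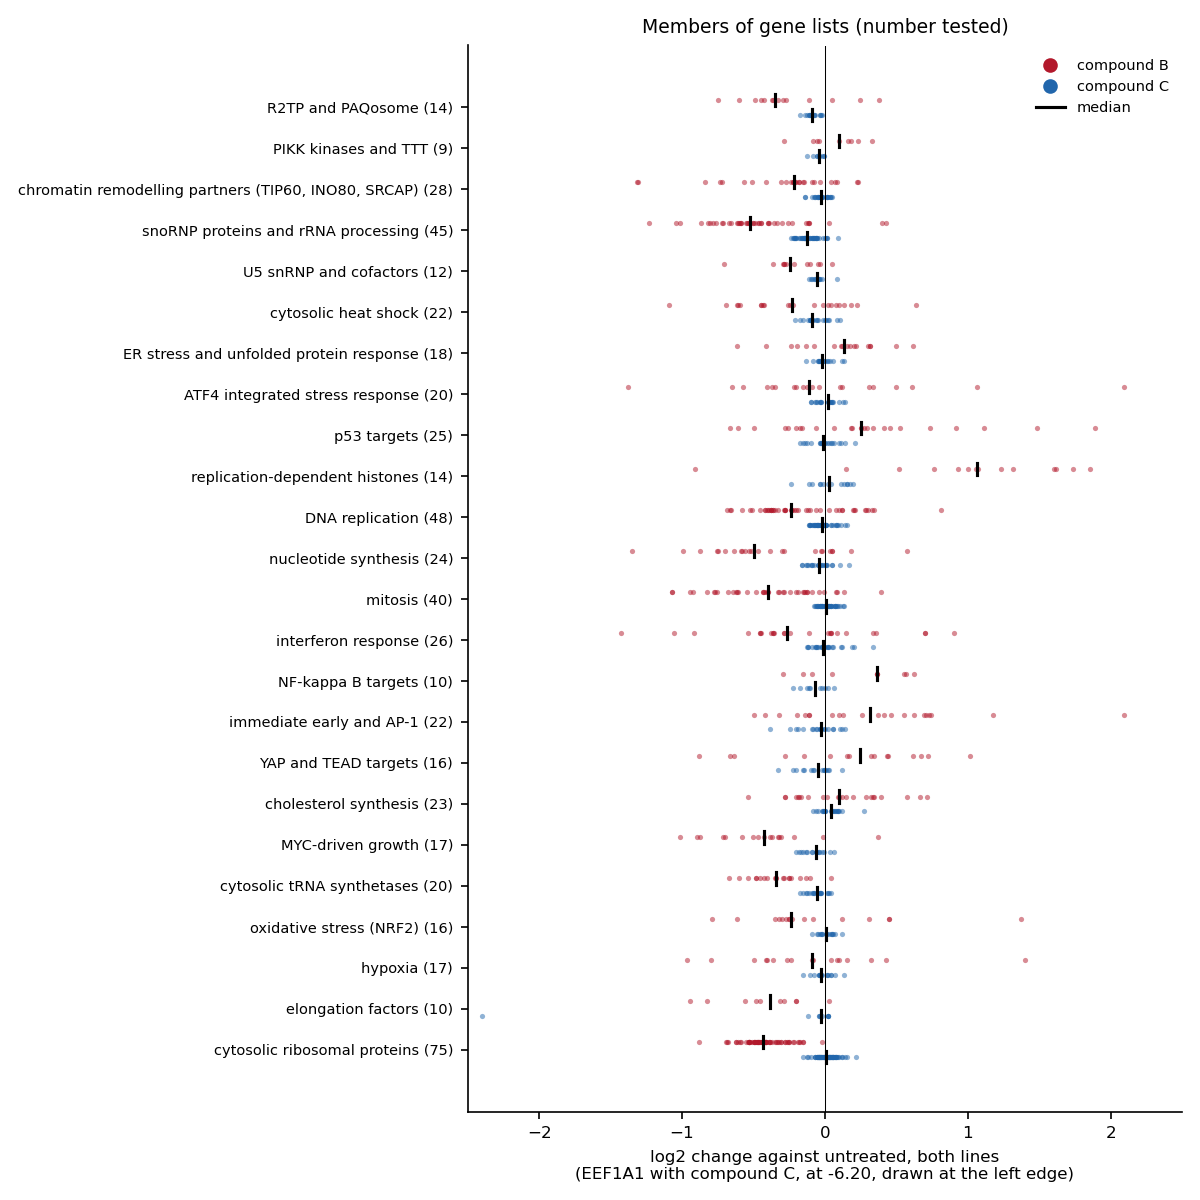
Log2 change against untreated cells (horizontal) of each tested member of 24 gene lists, with compound B above compound C in each list, the number of tested genes in brackets and the list median as a bar. Compound C points lie close to 0 in every list but for EEF1A1, drawn at the edge, while with compound B the histones have a median of 1.06 and the snoRNP proteins one of -0.52.

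In the translation machinery, 0 of 75 cytosolic ribosomal protein genes passed with compound C and their median was 0.01. The pairs of H2009 ran in opposite directions, with a median of -0.29 in replicate 1 and 0.46 in replicate 2, while H596 had -0.06 and -0.10. Compound C replicate 2 of H2009 is the library with the highest sum of FPKM, and the part of that in the result was not tested. RPL35A, a protein of the large subunit, had a log2 change of -0.12 (95% interval -0.43 to 0.19). The elongation factor EEF2 was at 865 and 625 FPKM in H2009 and 529 and 659 FPKM in H596 with compound C, against 870.1 and 789.9 FPKM in H2009 and 568 and 672 FPKM in H596 without treatment, a log2 change of -0.12 (95% interval -0.45 to 0.21). EEF1A1, which delivers aminoacyl-tRNA to the ribosome and is among the most abundant messages of a cell, was the exception. It was listed at 0 in both H2009 libraries with compound C and at 2733 and 3214 FPKM in H596 with compound C, against 4687 and 6431 FPKM in H2009 and 2518 and 3410.4 FPKM in H596 without treatment. With compound B it was at 2671 and 3986 FPKM in H2009 and 1962 and 2652 FPKM in H596. EEF1A1 was the only tested gene listed at 0 in both compound C libraries of a line and above 0 in both untreated ones. The listed values of the lines differed in the interaction test, at 12.44 on the log2 scale (limma adjusted p = 2.81e-09), while the change over both lines, -6.20 (95% interval -10.42 to -1.99), did not pass; both sizes depend on the number added before the logarithm. A listed 0 in an FPKM table can be a failed estimate, which these files do not separate from absent RNA, so no fold change is given for H2009. Its paralog EEF1A2 was at 125 and 50.7 FPKM in H2009 and 8.61 and 4.67 FPKM in H596 with compound C, against 134 and 56.1 FPKM in H2009 and 9.41 and 3.87 FPKM in H596 without treatment, a log2 change of -0.04 (95% interval -0.27 to 0.20).

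Since no gene was called, the strongest tendencies are given as values. Of the genes whose 4 replicate pairs shared a sign, 8 with the highest and 8 with the lowest moderated t were drawn in the plot of leading genes; being chosen on this contrast, they are a description. RTN2, a reticulon of the endoplasmic reticulum, was at 8.47 and 6.13 FPKM in H2009 and 2.68 and 1.24 FPKM in H596 with compound C, against 6.33 and 4.25 FPKM in H2009 and 1.81 and 0.942 FPKM in H596 without treatment. Its log2 change was 0.35 (95% interval 0.16 to 0.54) with an unadjusted p of 0.00184, and its 4 pairs lay between 0.20 and 0.44. MARCH2, a membrane-bound ubiquitin ligase, was at 3.11 and 2.72 FPKM in H2009 and 6.52 and 5.46 FPKM in H596 with compound C, against 2.35 and 2.10 FPKM in H2009 and 5.56 and 3.84 FPKM in H596 without treatment. In both lines each compound C library of MARCH2 lay above the untreated library of its own number, and the log2 change was 0.29 (95% interval 0.10 to 0.48). COX20, an assembly factor of cytochrome c oxidase, was at 5.65 and 9.24 FPKM in H2009 and 3.52 and 4.30 FPKM in H596 with compound C, against 4.67 and 5.80 FPKM in H2009 and 2.75 and 3.90 FPKM in H596 without treatment, a log2 change of 0.30 (95% interval 0.09 to 0.51). On the low side, IL7R, the interleukin-7 receptor chain, was at 4.55 and 6.69 FPKM in H2009 and 2.11 and 2.24 FPKM in H596 with compound C, against 5.23 and 8.84 FPKM in H2009 and 3.15 and 3.80 FPKM in H596 without treatment, a log2 change of -0.38 (95% interval -0.62 to -0.13). ZNF20, a zinc finger gene, was at 1.70 and 1.27 FPKM in H2009 and 0.921 and 0.546 FPKM in H596 with compound C, against 2.09 and 1.62 FPKM in H2009 and 1.70 and 1.60 FPKM in H596 without treatment, a log2 change of -0.41 (95% interval -0.64 to -0.19). SLC25A28, a mitochondrial iron importer, was at 10.4 and 9.38 FPKM in H2009 and 11.5 and 13.3 FPKM in H596 with compound C, against 13.2 and 12.5 FPKM in H2009 and 13.6 and 15.1 FPKM in H596 without treatment, and its compound C libraries lay below all untreated ones in both lines. All of these had an adjusted p of 0.999998 or more in limma. With compound B against the same untreated libraries, the log2 change was 0.37 for RTN2 and 0.32 for MARCH2. It was -0.68 for IL7R, -0.31 for ZNF20 and -0.35 for SLC25A28, while COX20 went the other way, at -0.34. RTN2, IL7R, SLC25A28 and COX20 passed with compound B, where 29.7% of all genes were called. Both compounds are set against these untreated libraries, so the shared signs were not tested.

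**Figure D4:**
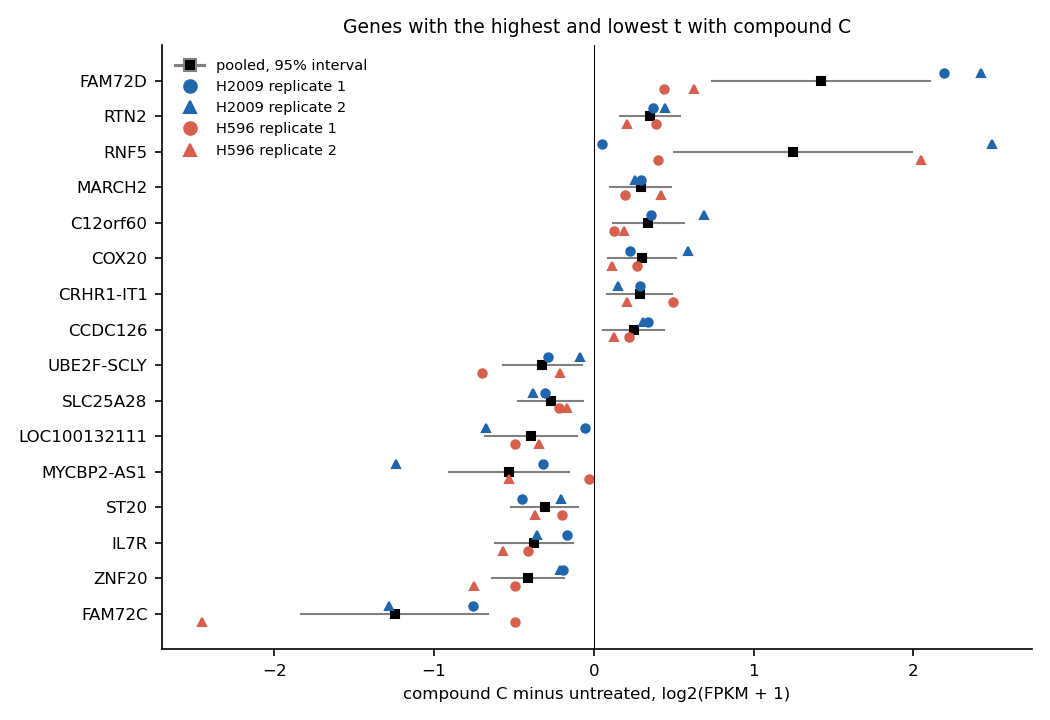
Compound C minus untreated on the log2(FPKM + 1) scale (horizontal) for the 16 genes named by the rule, with the pooled estimate and its 95% interval in black and grey and the 4 replicate pairs as coloured symbols. FAM72D, FAM72C and RNF5 stand apart at 1.42, -1.25 and 1.25, while the other 13 lie between -0.53 and 0.35.

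The lowest and the highest t belonged to 2 members of 1 gene family, FAM72C and FAM72D, whose changes had opposite signs. The family has 4 near-identical genes on human chromosome 1. The stretches below are an example of shared sequence, each 120 bases upstream of an annotated transcript start and read 5′ to 3′. They come from the RefSeq promoter table for the GRCh38.p14 build, in which 3 of the 4 genes had an entry. The FAM72C stretch is chr1:143972086-143972205 (minus strand), that of FAM72D is chr1:145095784-145095903 (plus strand) and that of FAM72A is chr1:206202970-206203089 (minus strand). The capital marks the 1 position at which FAM72A differs from the others.
FAM72C: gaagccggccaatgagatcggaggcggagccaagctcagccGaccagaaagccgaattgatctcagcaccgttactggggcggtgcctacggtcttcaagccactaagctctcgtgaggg
FAM72D: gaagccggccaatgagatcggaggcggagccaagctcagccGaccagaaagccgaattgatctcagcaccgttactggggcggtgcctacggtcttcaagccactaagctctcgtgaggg
FAM72A: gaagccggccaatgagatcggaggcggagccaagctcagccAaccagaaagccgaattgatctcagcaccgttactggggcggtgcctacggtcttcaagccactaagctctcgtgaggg
The stretch was chosen as one that FAM72C and FAM72D share in full, so their identity at 120 of 120 bases was set by that choice. FAM72A was required to share its first bases and matched FAM72C at 119. These are flanking bases and not the counted transcripts. FAM72D was at 3.61 and 4.39 FPKM in H2009 and 2.45 and 5.89 FPKM in H596 with compound C, against 0.00706 and 0.00405 FPKM in H2009 and 1.55 and 3.46 FPKM in H596 without treatment. FAM72C was at 3.76 and 2.65 FPKM in H2009 and 2.52 and 0.00073 FPKM in H596 with compound C, against 7.05 and 7.85 FPKM in H2009 and 3.96 and 4.48 FPKM in H596 without treatment. The level of FAM72D was higher and that of FAM72C lower with compound C in all 4 replicate pairs. The log2 change was 1.42 (95% interval 0.74 to 2.10) for FAM72D and -1.25 (95% interval -1.83 to -0.66) for FAM72C, with unadjusted p of 0.000826 and 0.000718 and no call after adjustment. With compound B, FAM72D was at 2.05 and 4.19 FPKM in H2009 and 3.23 and 5.03 FPKM in H596. FAM72C was at 5.01 and 1.44 FPKM in H2009 and 1.32 and 0.507 FPKM in H596 with compound B. Against the same untreated libraries, compound B gave 1.28 for FAM72D and -1.31 for FAM72C (limma adjusted p = 0.00799 and 0.00435). Compound B minus compound C was -0.14 for FAM72D and -0.06 for FAM72C. Summed, the pair was at 7.37 and 7.04 FPKM in H2009 and 4.97 and 5.89 FPKM in H596 with compound C, against 7.06 and 7.86 FPKM in H2009 and 5.50 and 7.95 FPKM in H596 without treatment. Fitted as 1 gene, a choice made after the values were seen, the sum had a log2 change of -0.15 (95% interval -0.37 to 0.08, limma adjusted p = 0.999998). The log2 change was -0.08 (95% interval -0.26 to 0.11) for FAM72A and -0.07 (95% interval -0.26 to 0.12) for FAM72B. Within H2009 FAM72D passed the limma test (log2 change 2.31, adjusted p = 0.00342). Reads shared by such copies can be assigned to either one, so the values of single members are uncertain, and the stacked plot shows the sum beside its parts.

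**Figure D5:**
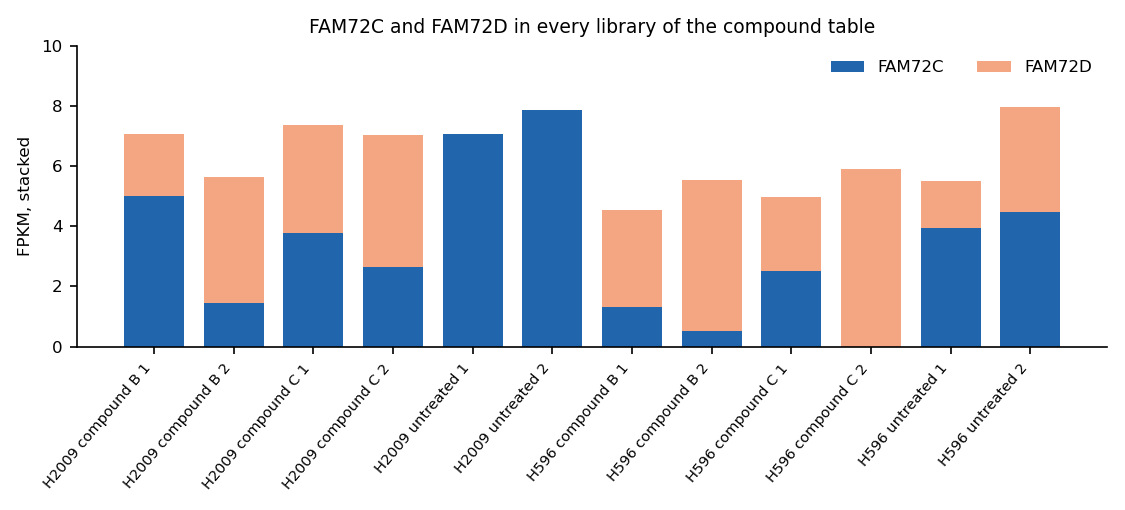
Stacked bars of FAM72C and FAM72D in FPKM in each of the 12 libraries, with compound B, compound C and untreated libraries from left to right within each line. In untreated H2009 cells FAM72D stands at 0.00706 and 0.00405 FPKM. In the same line it stands at 3.61 and 4.39 FPKM with compound C and at 2.05 and 4.19 FPKM with compound B. The total in the 8 libraries of compound C and untreated cells stays between 4.97 and 7.95 FPKM.

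The other wide intervals also fell on genes with copies, on read-through genes and on small RNA genes. An interval reaching beyond 1 in size was found for 14 genes: EEF1A1, FAM72C, FAM72D, H3F3A and its copy H3F3AP4, RNF5, the pseudogenes MRPL42P5, NUDT4P1 and NUDT4P2, the read-through genes DNAJC25-GNG10, COMMD3-BMI1 and TMEM189-UBE2V1, and the small RNA genes RNU11 and RNU4ATAC. H3F3A, a gene of the replication-independent histone H3.3, was at 3.78 and 443 FPKM in H2009 and 189 and 612 FPKM in H596 with compound C, against 0.113 and 129.5 FPKM in H2009 and 371 and 574 FPKM in H596 without treatment. H3F3AP4 was at 450.1 and 13.6 FPKM in H2009 and 578 and 0.0904 FPKM in H596 with compound C, against 453 and 307 FPKM in H2009 and 445 and 155 FPKM in H596 without treatment. Where one of the pair was near 0 the other was high, in treated and untreated libraries. Their sum was 454 and 456 FPKM in H2009 and 767 and 612 FPKM in H596 with compound C, against 453 and 437 FPKM in H2009 and 816 and 729.5 FPKM in H596 without treatment. The log2 change of the sum was -0.07 (95% interval -0.33 to 0.20), whereas that of H3F3AP4 alone was -2.80 (95% interval -5.10 to -0.50). Compound B minus compound C was 2.98 for H3F3AP4 alone and 0.12 for the sum. RNF5, a ubiquitin ligase of the endoplasmic reticulum membrane, was at 2.10 and 4.64 FPKM in H2009 and 6.23 and 6.04 FPKM in H596 with compound C, against 1.99 and 0 FPKM in H2009 and 4.47 and 0.698 FPKM in H596 without treatment. One untreated H2009 library is listed at 0, and the log2 change of 1.25 (95% interval 0.50 to 1.99) did not pass. Its processed copy RNF5P1 was at 34.5 and 65.2 FPKM in H2009 and 55.1 and 49.6 FPKM in H596 with compound C, against 36.7 and 45.7 FPKM in H2009 and 53.5 and 53.1 FPKM in H596 without treatment. RNF5 and RNF5P1 summed had a log2 change of 0.16 (95% interval -0.19 to 0.51). Read-through genes showed the same instability, with DNAJC25-GNG10 at 0 and 3.46 FPKM in H2009 and 0.00478 and 6.42 FPKM in H596 with compound C, against 0 and 0 FPKM in H2009 and 0 and 0.0124 FPKM in H596 without treatment.

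Genes lowered by siRNA against RUVBL1 give a further panel, chosen in libraries that this comparison does not use. Each siRNA pair is a library with siRNA against RUVBL1 minus the siNT library of the same line and replicate number. Of 10963 genes in both siRNA tables, 7 were lower by 1 or more on the log2 scale in all 4 siRNA pairs (both lines, both replicates) and 0 were higher by as much. With compound C 0 of the 7 passed, their changes ran from -0.11 to 0.08, and all 7 intervals lay between -0.5 and 0.5, as did 97.3% over all genes. Against untreated cells, compound B was called lower for 3 of the 7 and higher for 1, where 17.7% and 12% of all genes were called. That 1 was PROSC, at 0.38 with compound B and -1.60 on average with the siRNA. RUVBL1 itself was at -5.06 on average over the siRNA pairs and at -0.11 with compound C. PTGES3, the HSP90 co-chaperone p23, averaged -1.36 with the siRNA and was at 675 and 758 FPKM in H2009 and 427 and 430.5 FPKM in H596 with compound C, against 603 and 683 FPKM in H2009 and 447 and 468 FPKM in H596 without treatment. INSIG1, which holds back cholesterol synthesis, averaged -1.47 with the siRNA and was at 35.3 and 21.6 FPKM in H2009 and 16.1 and 13.8 FPKM in H596 with compound C, against 32.2 and 19.5 FPKM in H2009 and 16.9 and 12.5 FPKM in H596 without treatment. Compound C minus untreated was 0.03 (95% interval -0.23 to 0.29) on the log2 scale for PTGES3 and 0.08 (95% interval -0.14 to 0.31) for INSIG1. ZNF322, P4HA2, PROSC and DTNBP1 make up the rest, with changes of -0.03, 0.04, -0.05 and 0.00. Compound B differed from compound C for INSIG1 by -0.62 (95% interval -0.93 to -0.31, limma adjusted p = 0.0176) and for PROSC by 0.43 (95% interval 0.15 to 0.71, limma adjusted p = 0.0415), and the other 5 did not pass. The siRNA was left on for days, longer in H596 than in H2009, and measured against siNT libraries and not untreated cells. The values therefore stand side by side and were not compared.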

How the data were processed

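The RNA-seq values are the FPKM that the authors deposited for each gene, in 1 table of 12 libraries. Per the submitters' processing notes, CASAVA 1.8.2, TopHat2 2.0.12, Cufflinks 2.2.1 and the hg19 build were used. Per the labels' protocols, libraries came from a stranded mRNA kit. Cufflinks estimates can divide reads among near-identical or overlapping genes. No read counts are given, so depth is unknown.

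Values were taken as log2(FPKM + 1) for the 10645 genes with a mean of at least 1 FPKM in both lines. Tests used limma 3.58.1 (R 4.3.3) with a mean-variance trend, Benjamini-Hochberg adjustment at 0.05 and, as blocks, cell line and replicate number; 4 residual degrees of freedom remain. The interaction of line and treatment, compound B against compound C and compound B against untreated cells were fitted alike. The last of these shares its untreated libraries with compound C against untreated cells, and compound B against compound C shares the compound C libraries. The scripts were tested on simulated data.

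The difference between replicates 1 and 2 correlated across genes in all 6 pairs of groups, with r from 0.585 to 0.868. What the replicate numbers stand for is not stated.

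Named were RUVBL1, RUVBL2, all called genes, the 8 highest and 8 lowest t among genes with 1 sign in 4 replicate pairs, the 2 members of each list with the largest t, the compound B and siRNA panels and genes of the interaction. Other list members and the copies of wide-interval genes were named after their values were seen. The comparison, lists and rules were chosen with earlier results of these data known. From the siRNA tables, 19 entries with date-like names were left out. Alternatives changed the pseudocount, filter, blocks, scaling, libraries in the fit and variance trend, and left out each library. The fit of all 12 libraries also held terms for effects that differ between the lines. Sums of FAM72C with FAM72D, H3F3A with H3F3AP4 and RNF5 with RNF5P1 were added after the data were seen.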

Additional observations from a re-analysis of the deposited data

Results flagged for a closer look

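Within replicates, 5 of 99 sets of 4 values held 1 value far from the other 3; chance alone gives about 1 in 20. None of these genes passed in compound C against untreated cells. For HIST2H2BE, a histone gene, compound C minus untreated was 0.0509 on the log2 scale in H2009 replicate 2 and between 0.240 and 0.266 in the other 3 pairs. For KARS, the lysyl-tRNA synthetase, it was -0.0317 in H596 replicate 1 and between -0.211 and -0.183 in the others. For EPCAM, an epithelial adhesion gene, it was 0.395 in H2009 replicate 2 and between -0.0384 and -0.0044 in the others. For INSIG1 it was -0.0726 in H596 replicate 1 and between 0.129 and 0.143 in the others. The sum of FPKM over the table was 749060 in compound C replicate 2 of H2009 and between 569926 and 573726 in the other 3 compound C libraries. EPCAM and HIST2H2BE differ in that same pair of libraries.

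For EEF1A1 the listed values gave a difference of 12.44 between the lines (compound C minus untreated, H596 minus H2009, on the log2 scale). The gene is listed at 0 in both H2009 libraries with compound C, which may be a failed estimate, so the size rests on those 0s and on the number added before the logarithm and is not a measured difference in response. Without genes listed at 0 in any library, 0 genes differed between the lines, and 49 had an unadjusted p under 0.05.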

How the results depend on the processing

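Compound C against untreated cells gave 0 calls under 19 of 20 alternatives, each single library left out included; unadjusted p under 0.05 ranged from 9 genes without the replicate block to 366 without compound C replicate 1 of H2009. A replicate block within each line gave 0 calls and 182 genes with an unadjusted p under 0.05, against 63 in the main fit. With all 12 libraries in the fit, and with effects allowed to differ between the lines, 2 genes passed. They were EEF1A1 and FAM72D, both list members (2 of the lists' genes against 0). The added libraries and the added terms came together, so their parts cannot be told apart. For the effect of H596 minus H2009 the count of 1 became 2 at a pseudocount of 0.1, 2 with a replicate block within each line and 0 without genes listed at 0, and was 1 to 3 with single libraries left out, the higher counts without any one H596 library.

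Compound B against compound C had 1636 calls, 91 with no replicate block and 1004 at a minimum of 5 FPKM. It had 3931 with all 12 libraries and effects allowed to differ between the lines. Leaving out single libraries gave 160 to 2645: 160 and 995 without compound C replicates 1 and 2 of H2009, 293 and 392 without compound B replicates 1 and 2 of H2009, 2645 and 881 without compound B replicates 1 and 2 of H596. The share higher with compound B was 45.8%, but 67.0% with no replicate block and 35.1% at 5 FPKM. Compound B against untreated had 3165 calls, 204 with no replicate block and 1056 to 3591 with single libraries left out: 1378 and 1183 without compound B replicates 1 and 2 of H2009, 1056 and 1395 without its untreated replicates 1 and 2. The cause of these shifts was not tested. Leaving out the replicate block, or fitting it within each line, changed no call of compound C against untreated cells.

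Over 1914 values of 97 named genes with compound C, 53 changed sign, in 26 genes, 2 passed (EEF1A1 and FAM72D, above), and FAM72D reversed to -0.15 when summed with FAM72C. RNF5 summed with RNF5P1 gave 0.16. Unknown depth limits what can be said of genes under a few FPKM.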
